A study of Mus musculus with 32 samples.

Results

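Whole tumors of the murine mesothelioma cell line AB1 grown under the skin were compared with each other, with 8 subcutaneous (SC) tumors taken from 32 samples in all. The 8 libraries were chosen by their titles, and no other measure was used to choose them. Each BALB/c mouse, described in the study's methods as female and 8 to 10 weeks old, was inoculated on the right flank with 500000 AB1 cells and received no treatment. Tumors were collected on day 10, surrounding tissue was removed, and polyadenylated RNA of the whole tumor was sequenced with 50 bp single-end reads. The groups of the study hold 8 mice each, so the 8 libraries are separate animals inoculated with the same line, and all spread reported here is spread between tumors of one condition. Total counts ranged from 15432258 to 19235665 per tumor (median 16733862), and between 17257 and 17789 genes had at least 3 counts. A gene with 3 counts, treated as the limit of detection, has a level of 0.156 to 0.194 CPM (read counts per 1e6 counts of the library, with edgeR's TMM scaling), and this limit covers counting error only. In all 28 pairs of tumors the counts differed beyond sampling noise, with chi-square values of 7.83 to 37.0 for each degree of freedom, and none was a copy of another. The lane given in the names of the alignments was lane 3 for tumors 1 and 2 and lane 2 for tumors 3 to 8.

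A transplanted tumor is a mixture of the inoculated cells with the vessels, fibroblasts, leukocytes and adjoining skin, fat, nerve or muscle of the host. Macrophages answer interferon-gamma with guanylate-binding proteins, nitric oxide synthase and lymphocyte-attracting chemokines, and answer interleukin 4 and interleukin 13 with lectins, chitinase-like proteins and eosinophil-attracting chemokines. In RNA of a whole tumor, fewer cells of a type and less RNA per cell cannot be told apart. Defining markers of mesothelium were low in all 8 tumors. Upk3b, Muc16, Lrrn4, Gpm6a and Krt19 stayed at or below 0.415 CPM, Krt7 at or below 0.772 CPM, and Calb2 at or below 1.16 CPM. Wt1 lay between 0.358 and 2.51 CPM, whereas Pdpn, shared by mesothelium, fibroblasts and lymphatic vessels, lay between 77.1 and 107 CPM. All 4 Y-linked genes listed, of which Ddx3y was between 16.98 and 38.9 CPM, were counted in every tumor. Xist, the RNA that coats the inactive X chromosome of female cells, had between 4 and 8 counts in 7 tumors and 65 counts in tumor 3, against 4607 to 34991 counts in the 16 AE17 libraries of the same table. These Xist counts go against the description of the BALB/c mice as female, and the sex of the AB1 cells is not given in the sources used here.

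To ask which genes vary more than their level predicts, a negative binomial model with 1 mean per gene was fitted to the 8 tumors. The relative variability of a gene is its residual deviance per degree of freedom at the dispersion that edgeR's trend gives to genes of its level, so that 1 marks a gene on the trend. Of 13392 genes tested, 565 were called variable at an adjusted p under 0.05 (edgeR deviance test, Benjamini-Hochberg), which is 4.22% of the genes. The test required counts in every tumor, and a second test of 14612 genes averaging 10 counts or more called 546, or 3.74%, of which 369 were among the 565. The median gene had a relative variability of 0.463 and differed 1.36-fold between its highest and lowest tumor, and the median called gene differed 2.86-fold. Each tumor was left out in turn, and 263 of the 565 calls were made in all 8 of these fits. DESeq2 marked 208 genes as dispersion outliers, all of them among the 565. Tumor 6 was the tumor farthest from the mean of the 8 for 198 called genes and tumor 3 for 107, and 138 calls were not made without tumor 6.

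**Figure D1:**
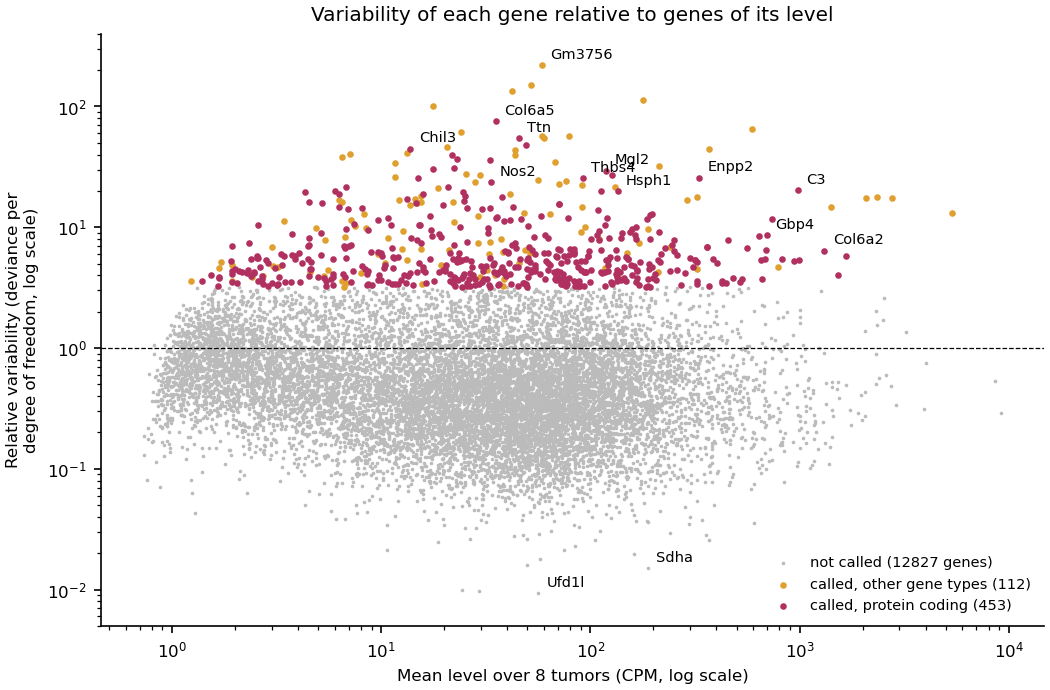
Each point is one of 13392 genes, with its mean level over the 8 tumors in CPM on the horizontal log axis and its relative variability on the vertical log axis; the dashed line marks the level-matched trend. Called genes form the upper edge at every level, and Col6a5 stood highest among the protein-coding genes at 75.6.

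Among the 25 protein-coding genes of highest relative variability, with values from 18.9 to 75.6, 8 belonged to the lists of skeletal muscle and its regulators, and the others included macrophage, chemokine and matrix genes. All 25 were called without each of the 8 tumors and among the 6 tumors of lane 2 alone. Of the 25 genes, 14 were highest in tumor 6 and 9 had their lowest 2 values in tumors 5 and 7. Col6a5, a chain of the microfibrillar collagen VI (chromosome 9, 105856078 to 105960643, GRCm38), measured 8.75, 59.1, 3.73, 2.33, 40.8, 112, 11.5 and 45.5 CPM in tumors 1 to 8. It was therefore high in tumors 6 and 2 and low in tumors 4, 3 and 1, with a fold of 47.9 between the extremes. Enpp2, which encodes the secreted lysophospholipase autotaxin, measured 175, 419.7, 119.6, 203, 307, 728, 287 and 413 CPM in tumors 1 to 8. It was highest in tumor 6 and lowest in tumor 3. At the other end, the 6 protein-coding genes of lowest relative variability with a mean of at least 50 CPM were Ufd1l, Sdha, Fyttd1, Usp7, Babam1 and 9030624J02Rik. Their highest and lowest tumors differed by only 1.04-fold to 1.05-fold, and Sdha, a subunit of the respiratory chain, stayed between 183 and 191 CPM.

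Lists of marker and pathway genes were summarized by a score, the mean log2 CPM of the members minus its mean over the 8 tumors, and by the number of members called. Of 652 listed genes 562 were analysed here, and 47 of 48 lists could be scored. The SD of the score over the 8 tumors had a median of 0.298 on the log2 scale, and 7 lists reached an SD of at least 0.5. These were skeletal muscle, myogenic regulators, eosinophil, white adipocyte, Schwann cell and nerve, erythroid, and M2-like and lipid macrophage genes. The SD of the Schwann cell and nerve score was 0.542, and 0.286 with the members that pass the first filter alone. The lists were described by these counts and by the median relative variability of their tested members, set beside the 4.22% of genes called and the median of 0.463 over all genes, with no test of a list as a whole.

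**Figure D2:**
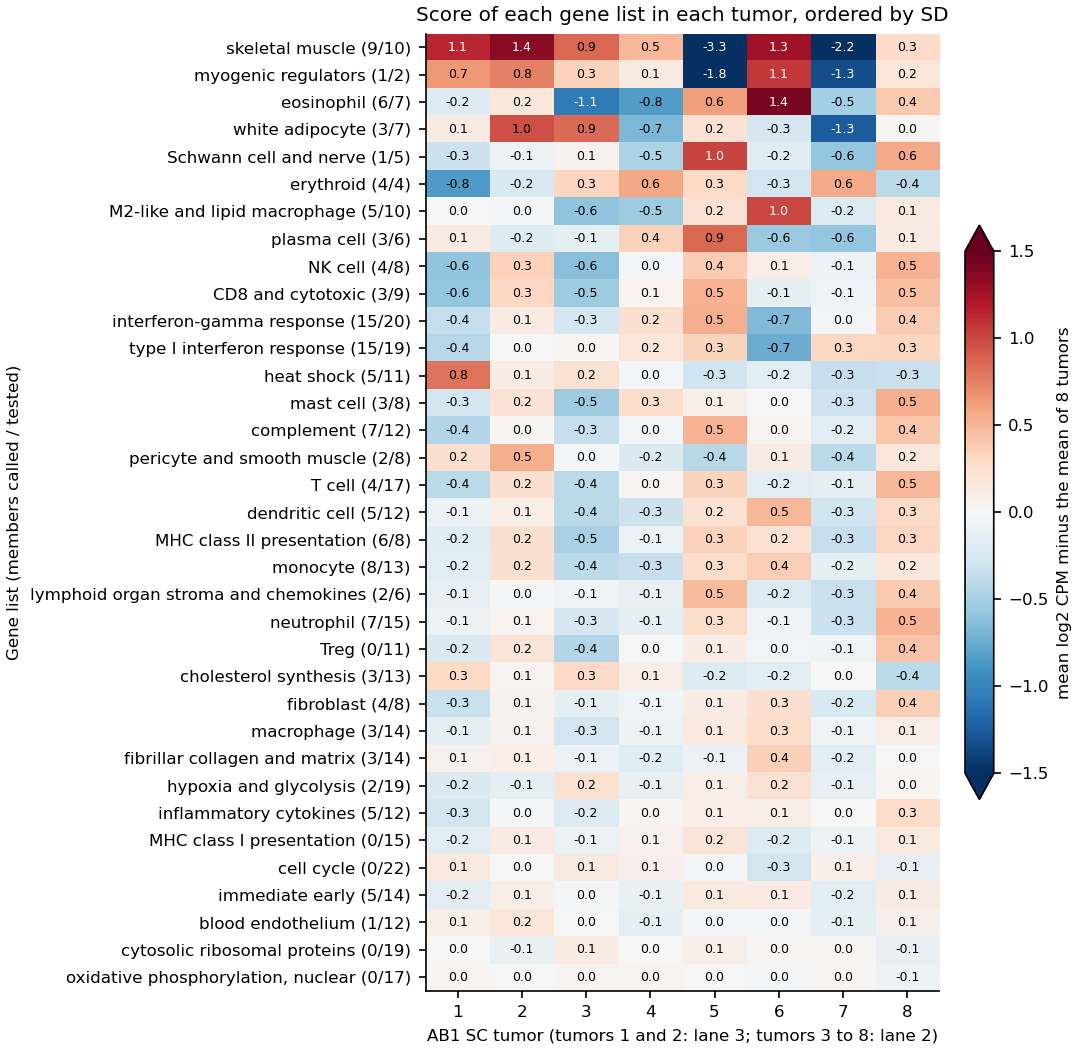
Rows are 35 gene lists ordered by the SD of their score, columns are the 8 tumors, and each cell holds the score (mean log2 CPM minus the mean of the 8 tumors); numbers in parentheses are members called of members tested. Skeletal muscle runs from -3.25 in tumor 5 to 1.35 in tumor 2, whereas nuclear genes of oxidative phosphorylation stay within a 1.08-fold range.

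Skeletal muscle transcripts varied more than any other list scored, with an SD of 1.74 and a 24.4-fold range of the score. The score lay between 0.28 and 1.35 in tumors 1, 2, 3, 4, 6 and 8, and at -2.16 in tumor 7 and -3.25 in tumor 5, so the tumors fell into 6 with muscle transcripts and 2 with few. Of 10 members tested 9 were called, with a median relative variability of 22.6, and 17 of 18 were called in the test that allows a gene to be absent from some tumors. All 17 had their lowest 2 values in tumors 5 and 7. Ttn, the giant spring protein of the sarcomere (chromosome 2, 76703980 to 76982547), averaged 45.6 CPM ± 30.7 (SD, n = 8). Its level was 71.8, 81.2, 40.9, 45.4, 2.02, 78.2, 5.11 and 40.4 CPM in tumors 1 to 8 (edgeR deviance test, adjusted p = 1.3e-75). Atp2a1, the calcium pump of fast muscle, lay between 16.5 and 41.7 CPM in the 6 tumors and at 0.948 and 2.15 CPM in tumors 5 and 7. For Ttn no tumor lay between 5.11 and 40.4 CPM.

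The fast and adult myosin heavy chains fell outside the first test because tumor 5 had none of them. Myh1 measured 95.1, 56.5, 51.5, 56.8, 0, 60.8, 3.20 and 35.1 CPM in tumors 1 to 8, and the count of 0 in tumor 5 allows up to 0.174 CPM. Myh2 and Myh4 were also at 0 counts in tumor 5, and at 2.71 and 1.35 CPM in tumor 7, against at least 19.4 and 21.1 CPM elsewhere. Acta1, skeletal alpha-actin, was less extreme, with 50.0 and 44.6 CPM in tumors 5 and 7 against 93.0 to 217 CPM in the others. Eno3, the muscle enolase, had a relative variability of 0.924 and was not called, at 42.7 to 61.2 CPM. Of the regulators, Des, the muscle intermediate filament, ranged from 4.03 CPM in tumor 5 to 97.4 CPM in tumor 2, and Myh8, the neonatal myosin, from 0 counts in tumor 5 to 21.3 CPM in tumor 1. Myog, the transcription factor of myoblast fusion, was at 1.25 CPM or below in every tumor. Among the 6 tumors with muscle transcripts the scores of muscle and of myogenic regulators had a Pearson's r of 0.90, and no correlation is given over all 8, since the tumors form 2 clusters on these lists.

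Adipocyte genes had a different order of tumors. The white adipocyte score had an SD of 0.739, was highest in tumors 2 and 3 (0.97 and 0.85) and lowest in tumor 7 (-1.25), and 3 of 7 members were called, or 6 of 10 in the test that allows absence. Plin1, the coat protein of the fat droplet, measured 1.23, 3.86, 2.47, 0, 1.42, 0.656, 0.123 and 0.965 CPM in tumors 1 to 8. Cidec and Adipoq, the droplet fusion factor and the hormone adiponectin, were likewise highest in tumor 2, at 3.97 and 3.19 CPM, and at 0 counts in tumor 7. Adipocyte transcripts were thus near the detection limit in some tumors and low in all. Car3 and Plin4, which muscle also expresses, were called at higher levels, with Car3 between 1.35 CPM in tumor 7 and 25.3 CPM in tumor 2. Acsl1, an acyl-CoA synthetase that macrophages also express and the third gene called, had another order, with 61.4 CPM in tumor 5, 20.4 CPM in tumor 6 and 34.4 and 37.8 CPM in tumors 2 and 7. With the members that pass the first filter alone, the SD of the adipocyte score fell to 0.377.

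Of 5 Schwann cell and nerve genes tested 1 was called. Mbp, myelin basic protein, was at 45.2 and 31.4 CPM in tumors 5 and 8 and between 14.8 and 18.3 CPM in the other 6 (adjusted p = 1.17e-06 by edgeR's deviance test). Pmp22, a myelin gene that other cells express, was not called and ranged from 61.5 to 98.4 CPM. Mbp lost its call without tumor 5. The myosins Myh1, Myh2, Myh4 and Myh8 are members of the muscle lists that were singled out after their values were seen.

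Hemoglobin transcripts were low, with all 4 erythroid genes tested called, 2 of 4 in the test that allows absence and 1 by DESeq2. Hbb-bs, an adult beta globin, measured 3.76, 5.92, 11.3, 15.8, 12.9, 9.0, 13.7 and 5.02 CPM in tumors 1 to 8, lowest in tumors 1, 8 and 2. The score averaged -0.54 in the 2 tumors of lane 3 and 0.18 in the 6 of lane 2, and 2 of the 4 genes were called within lane 2 and 2 without tumor 7. The alpha globins Hba-a1 and Hba-a2 and the beta globins Hbb-bs and Hbb-bt are near-identical pairs whose reads the counting could split. Of 12 blood endothelial genes 1 was called, and none by DESeq2: Vwf, the clotting factor carrier, at 1.35 CPM in tumor 7 and 8.0 CPM in tumor 5, which lost its call without tumor 7. The lymphatic endothelial score had an SD of 0.496, and 0 of its 2 genes tested were called by edgeR's deviance test, 0 at an unadjusted p under 0.05 and 0 by DESeq2, against 1 of 3 in the test that allows absence. Epidermal genes were low, and neither of the 2 tested, Sfn and Col17a1, was called, at 0.843 to 2.16 CPM.

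Many macrophage, eosinophil and dendritic cell genes, and some monocyte genes, were high in tumor 6 and low in tumors 3 and 4. Of 10 M2-like and lipid macrophage genes 5 were called, of 7 tested eosinophil genes 6, of 12 dendritic cell genes 5 and of 13 monocyte genes 8, with median relative variabilities of 4.18, 11.4, 2.19 and 5.42. DESeq2 marked 4, 5, 3 and 5 genes of these lists. Chil3, a chitinase-like secreted protein (chromosome 3, 106147554 to 106167564), measured 9.98, 8.14, 2.05, 1.01, 9.72, 65.3, 8.0 and 6.04 CPM in tumors 1 to 8. Mgl2, a galactose-binding lectin of macrophages and dendritic cells, measured 115, 132, 43.0, 58.4, 115, 276, 79.1 and 134 CPM. Both were highest in tumor 6 and lowest in tumors 3 and 4, with adjusted p values of 1.01e-60 and 2.55e-38 by edgeR's deviance test. Ccl17, a chemokine for CCR4-bearing T cells, ranged from 5.72 CPM in tumor 3 to 60.7 CPM in tumor 6, and Clec10a, the paralog of Mgl2, from 15.8 to 68.8 CPM in the same tumors. Spp1 and Stab1, the M2-like list's genes of highest level, were not called, at 1698 to 2495 CPM and 236 to 302 CPM. The SD of the M2-like score was 0.502, and 0.322 without tumor 6.

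Of 14 general macrophage genes 3 were called, with a median relative variability of 1.52. Cd163, the hemoglobin scavenger receptor, measured 13.8, 35.7, 12.8, 13.2, 19.2, 66.6, 13.6 and 25.8 CPM in tumors 1 to 8. Mrc1, the mannose receptor, was at 601 CPM in tumor 6 and between 229 and 397 CPM in the other 7, and lost its call without tumor 6. C1qa, a complement subunit made by most macrophages, was not called and stayed between 612 and 888 CPM. Of the dendritic cell list, Itgax, the integrin CD11c, ranged from 51.0 CPM in tumor 3 to 161 CPM in tumor 6, and Ccl22, which shares its receptor with Ccl17, from 25 to 73.4 CPM in the same tumors. Ccl8, a monocyte chemoattractant, was abundant throughout, at 343 CPM in tumor 3 and 1286 CPM in tumor 6. These genes were highest in tumor 6 and lowest in tumor 3. Of the 8 called monocyte genes 4 fell into the same group of co-varying genes, and others went another way: Ly6c2, a surface marker of inflammatory monocytes, was lowest in tumor 6, at 70.2 CPM, and highest in tumor 8, at 152 CPM.

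The eosinophil list varied with an SD of 0.822, from -1.06 in tumor 3 to 1.43 in tumor 6, but its members did not move as one. Ear2, a ribonuclease of eosinophils and macrophages, measured 13.5, 18.6, 6.02, 6.98, 18.1, 91.8, 10.6 and 19.4 CPM in tumors 1 to 8, and Ear1 ranged from 0.955 CPM in tumor 4 to 18.1 CPM in tumor 6. The Ear genes are close paralogs, so the split of reads among Ear1, Ear2, Ear6 and Ear10 is uncertain. The eosinophil chemoattractants Ccl11 and Ccl24, which other cells secrete, were also highest in tumor 6, at 78.1 and 26.1 CPM, and lowest at 19.8 CPM in tumor 3 and 1.37 CPM in tumor 4. The defining granule protein genes Epx and Prg2 were at or below 0.771 CPM in all tumors. Siglecf and the chemokine receptor Ccr3 were highest in tumor 5, at 4.92 and 6.46 CPM, with 3.22 and 4.23 CPM in tumor 6, and Ccr3 was not called. Il13, singled out after its values were seen, was at 4.41 CPM in tumor 6 and between 0.241 and 1.70 CPM in the other 7, and was called in the test that allows absence, whereas Il4, at 1.34 to 2.56 CPM, was not.

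**Figure D3:**
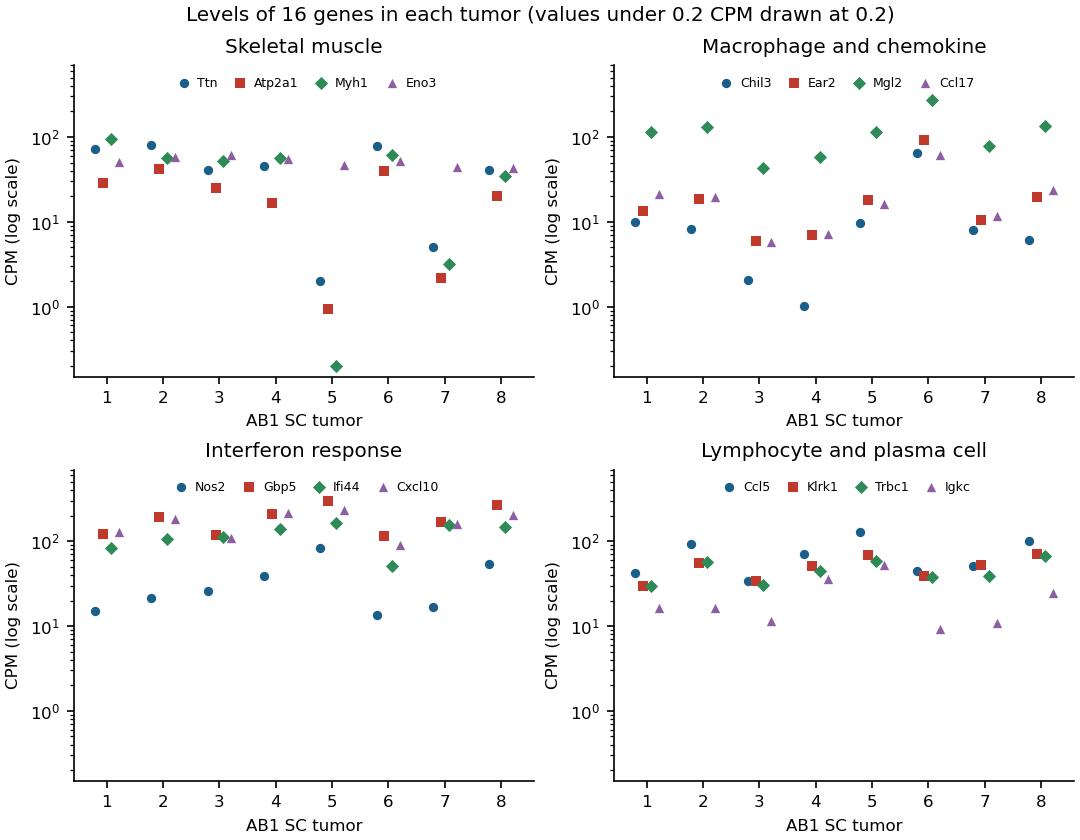
Levels of 16 genes in CPM on a log axis, 1 mark per gene and tumor, in 4 panels by gene group; values under 0.2 CPM are drawn at 0.2. The muscle genes other than Eno3 drop in tumors 5 and 7, Chil3, Ear2, Mgl2 and Ccl17 peak in tumor 6, and Ifi44, Cxcl10 and Gbp5 are lowest in tumor 6.

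Interferon-induced genes varied in most members of both lists, with tumor 6 low and tumor 5 high. Of 19 genes of the type I interferon response 15 were called and of 20 genes of the interferon-gamma response 15, with score SDs of 0.393 and 0.407 and median relative variabilities of 4.36 and 5.53. Tumor 6 was the lowest tumor for 14 and 15 of these called genes, and tumor 5 the highest for 7 and 13. Nos2, the inducible nitric oxide synthase, measured 14.9, 21.2, 25.8, 38.4, 83.7, 13.7, 16.98 and 53.4 CPM in tumors 1 to 8. Gbp5, a guanylate-binding protein of cell-autonomous defense, measured 122, 192, 118, 210.2, 295, 117, 170.0 and 266 CPM. Cxcl10, a chemokine for CXCR3-bearing lymphocytes, measured 129, 180.4, 108, 215, 236, 89.4, 158 and 203 CPM. All 3 were highest in tumor 5 and, with adjusted p values from 1.1e-29 to 1.13e-10, were called in every fit that left out 1 tumor (edgeR deviance test).

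Ifi44 and Oas3, a type I interferon target and a sensor of double-stranded RNA, were at 51.4 and 23.7 CPM in tumor 6 against 83.1 to 163 CPM and 41.3 to 82.3 CPM in the other 7, with no overlap. The number of called genes of the type I list rested on tumor 6. Without it 5 of 19 were called, and 10 of 20 of the interferon-gamma list. DESeq2 marked 4 and 8 genes of these lists, and in the test that allows absence 11 and 12 were called. MHC class I genes are also induced by interferon. Of 15 tested, 0 were called by edgeR's deviance test, 0 at an unadjusted p under 0.05 and 0 by DESeq2. Their median relative variability was 0.888, above the 0.463 of all genes, and B2m stayed between 1928 and 2722 CPM. MHC class II genes had a median relative variability of 3.90, with 6 of 8 called, 3 without tumor 3 and 0 by DESeq2. H2-Ab1 ranged from 514 CPM in tumor 3 to 1064 CPM in tumor 5.

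The start regions of 3 of the interferon-response genes are shown. They were taken from the called genes whose window holds at least 1 match to the motifs below. That each window shown holds a match was therefore fixed by the choice. Each window is 250 bases before to 50 after a RefSeq start on GRCm38.p6, read 5′ to 3′ on the gene's strand: Gbp5 at chr3:142496684-142496983 on the plus strand, Cxcl10 at chr5:92348840-92349139 on the minus strand and Oas3 at chr5:120777610-120777909 on the minus strand. Capitals mark matches, on either strand, to the core of the interferon-stimulated response element, searched as GAAANNGAA, or to the gamma-activated site, searched as TTCNNNGAA.
Gbp5: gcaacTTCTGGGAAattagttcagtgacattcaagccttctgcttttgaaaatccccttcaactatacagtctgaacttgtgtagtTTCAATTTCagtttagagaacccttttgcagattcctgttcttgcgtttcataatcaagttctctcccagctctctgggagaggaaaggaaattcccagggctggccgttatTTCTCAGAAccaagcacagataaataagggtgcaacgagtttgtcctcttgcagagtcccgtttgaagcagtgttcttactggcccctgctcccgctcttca
Cxcl10: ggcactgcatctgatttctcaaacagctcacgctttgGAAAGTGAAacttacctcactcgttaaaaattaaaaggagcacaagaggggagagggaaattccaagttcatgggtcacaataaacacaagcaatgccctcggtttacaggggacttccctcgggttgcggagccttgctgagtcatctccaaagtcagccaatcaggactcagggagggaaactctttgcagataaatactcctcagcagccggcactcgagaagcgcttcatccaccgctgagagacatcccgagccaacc
Oas3: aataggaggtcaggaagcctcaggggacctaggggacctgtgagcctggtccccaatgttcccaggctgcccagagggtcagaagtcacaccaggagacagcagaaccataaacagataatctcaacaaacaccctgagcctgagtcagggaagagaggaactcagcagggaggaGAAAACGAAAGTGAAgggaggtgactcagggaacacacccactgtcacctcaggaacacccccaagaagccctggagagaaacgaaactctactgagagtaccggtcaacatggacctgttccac
The Gbp5 window holds 1 element core and 2 gamma-activated sites, the Cxcl10 window holds 1 core, and the Oas3 window holds 2 cores that overlap; neither has a gamma-activated site. Among genes with a RefSeq window, 9.76% of all 27025 hold the element core and 9.55% the gamma-activated site. Of the tested genes with a window 9.10% hold the core, against 10 of 16 type I interferon genes and 11 of 12 interferon-gamma genes. The E-box, searched as CANNTG and bound by myogenic factors among many others, was in 13 of 16 skeletal muscle genes and in 75.0% of all genes. A match is a description of the sequence, not evidence of binding.

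The scores of the T cell, CD8 and cytotoxic, and NK cell lists varied 1.86-fold to 2.22-fold, with tumors 1 and 3 low and tumors 5 and 8 high. The score SDs were 0.335 for T cells, 0.418 for CD8 and cytotoxic genes and 0.431 for NK cells, and 4 of 17, 3 of 9 and 4 of 8 genes were called, with median relative variabilities of 2.37, 2.88 and 3.14. Ccl5, a chemokine of activated T and NK cells that interferon-exposed macrophages also make, measured 42.4, 93.1, 34.0, 70.6, 128, 44.6, 51.4 and 100.3 CPM in tumors 1 to 8 (edgeR deviance test, adjusted p = 3.9e-18). Klrk1, the activating receptor NKG2D, ranged from 29.7 CPM in tumor 1 to 71.1 CPM in tumor 8, and Trbc1, a T cell receptor constant segment, from 29.5 to 66.3 CPM in the same tumors. Trbc1 and Trbc2 are close copies. Regulatory T cell genes were not called, with 0 of 11 by edgeR's deviance test, 1 at an unadjusted p under 0.05 and 0 by DESeq2. The T cell, CD8 and NK counts were 1, 1 and 2 in the test that allows absence, and DESeq2 marked 0, 1 and 0 genes. The T cell count was 1 without tumor 8 and 2 without tumor 1, 2 or 3. The CD8 count was 1 without tumor 1, 2 without tumor 5 and 5 without tumor 6, and the NK count was 1 without tumor 3 and 2 without tumor 1. Ccl5, Klrk1 and Trbc1 were called in all 8 of these fits.

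Antibody genes were highest in tumor 5. Igkc, the kappa light chain constant region, measured 16.4, 16.4, 11.4, 36.0, 52.0, 9.12, 10.8 and 24.6 CPM in tumors 1 to 8, and Igha, the IgA heavy chain, ranged from 4.64 CPM in tumor 2 to 39.4 CPM in tumor 5. Jchain, which joins IgA and IgM into polymers, ranged from 2.80 CPM in tumor 6 to 18.1 CPM in tumor 5. In the test that allows absence 5 of 8 plasma cell and 3 of 8 B cell genes were called. Igkc, Igha and Jchain were the 3 of 6 plasma cell genes called in the first test, and Sdc1, which tumor cells can also express, was not, at 73.6 to 93.9 CPM. Of 14 immunoglobulin and T cell receptor genes tested 6 were called, 3 of each kind. Cxcl13, the B cell chemoattractant, lay at 6.20 CPM in tumor 6 and 11.2 CPM in tumor 2 and between 24.7 and 39.3 CPM in the other 6. Ighm, the IgM heavy chain and 1 of 6 B cell genes called, ranged from 21.5 CPM in tumor 6 to 57.8 CPM in tumor 5. Among mast cell proteases, Tpsab1, a tryptase, ranged from 144 CPM in tumor 3 to 323 CPM in tumor 8, and 3 of 8 mast cell genes were called, 1 of them by DESeq2.

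C3, the central complement component, measured 551, 1032, 393, 604, 1692, 1361, 644 and 1601 CPM in tumors 1 to 8, and was high in tumors 5, 8 and 6. C4b and the C1 inhibitor gene Serping1 were highest in tumors 5 and 8, with C4b at 354 and 286 CPM against 125 to 201 CPM in the other 6. Of 12 complement genes 7 were called, with a median relative variability of 4.28, and DESeq2 marked 3. Hp, haptoglobin, was at 59.0 and 41.3 CPM in tumors 2 and 3 and between 2.83 and 22.1 CPM in the others. Hp was thus highest in the tumors with the most adipocyte transcripts, and a part of fat in its level was not tested. Of 15 neutrophil genes 7 were called, and the neutrophil score was highest in tumor 8 (0.53) and lowest in tumor 7 (-0.32), but the called members moved in different ways. Without tumor 5 the count was 4, and DESeq2 marked 3. Clec4d and Clec4e, lectin receptors that macrophages also carry, were lowest in tumor 6, at 3.87 and 4.23 CPM, and reached 22.7 CPM in tumor 4 and 19.5 CPM in tumor 5. Cxcr2, the chemokine receptor of neutrophils, was highest in tumor 6, at 7.39 CPM, and lowest in tumor 4, at 1.61 CPM. Cxcl5, one of its ligands, ranged from 9.12 CPM in tumor 1 to 34.2 CPM in tumor 8.

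Of 14 fibrillar collagen and matrix genes 3 were called, with a median relative variability of 1.07, and of 8 fibroblast genes 4, or 2 without tumor 6 and 1 by DESeq2. Postn, a matricellular protein of activated fibroblasts, was at 375 CPM in tumor 6 and between 119 and 219 CPM in the other 7, and Col6a1 and Col6a2 were at 2729 and 2163 CPM in tumor 6 against at most 2156 and 1710.5 CPM elsewhere. Col3a1, the member of highest level, varied only from 7702 to 10368 CPM and was not called. Of the fibroblast genes, Pdgfra, a growth factor receptor, was at 245 CPM in tumor 6 and between 126 and 201 CPM in the others, and Pi16, a gene of perivascular fibroblasts, ranged from 41.3 CPM in tumor 3 to 97.1 CPM in tumor 8. Thbs4, a thrombospondin, was also highest in tumor 6, at 209.9 CPM, and lowest in tumor 5, at 35.4 CPM. Cdh1, the epithelial cadherin, measured 35.5, 29.3, 15.1, 15.5, 21.7, 71.5, 21.4 and 32.2 CPM in tumors 1 to 8, and fell into the same group of co-varying genes as Clec10a and Ccl11.

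Scores of cell growth programs had SDs below the median of 0.298. The SD was 0.144 for 22 cell cycle genes, 0.0821 for 19 ribosomal protein genes and 0.0377 for 17 nuclear genes of oxidative phosphorylation. None of these genes was called by edgeR's deviance test or marked by DESeq2. The median relative variability was 0.941, 0.271 and 0.336 in these lists, against 0.463 over all genes. Cell cycle genes thus lay above the median gene and the other lists below it. At an unadjusted p under 0.05, 2 cell cycle genes and none of the others passed, against 1138 of the 13392 genes tested. Mki67, the proliferation marker, lay between 639 CPM in tumor 6 and 939 CPM in tumor 1. Of 19 hypoxia and glycolysis genes 2 were called, and none by DESeq2: Bnip3, a mitophagy receptor, highest in tumors 3 and 6 at 128 and 114 CPM and between 56.8 and 81.7 CPM elsewhere, and Ndrg1, from 108 CPM in tumor 1 to 226 CPM in tumor 6, which lost its call without tumor 1. Heat shock genes varied more, with 5 of 11 called, 3 by DESeq2, and tumor 1 high. Hsph1, an HSP110 chaperone, was at 300.4 CPM in tumor 1 and between 78.7 and 173 CPM in the other 7. The close copies Hspa1a and Hspa1b were at 10.8 and 17.7 CPM in tumor 1 and at most 3.97 and 6.34 CPM elsewhere. Without tumor 1, Hsph1 and Hspb1 were the 2 heat shock genes called, and 2 were called within lane 2. Hspb1, a small chaperone abundant in muscle, was at 1.13 and 0.985 CPM in tumors 5 and 7 and at 3.41 to 13.8 CPM in the others. Of 14 immediate early genes 5 were called, or 3 without tumor 6 and 3 by DESeq2, and Fosb was at 20.2 and 20.7 CPM in tumors 1 and 3 and between 7.11 and 9.97 CPM elsewhere. Of 13 cholesterol synthesis genes 3 were called, and none by DESeq2, with Sqle, the squalene epoxidase, from 129.8 CPM in tumor 8 to 249 CPM in tumor 1; without tumor 8 none was called, without tumor 1 or tumor 3 only 1, and 1 was called within lane 2.

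To ask which programs vary together, the scores of 47 lists were compared in the 1065 pairs that share no gene, with exact two-sided permutation tests over the 40320 pairings of the 8 tumors. In 10 pairs Pearson's r passed an adjusted p under 0.05, and 200 pairs had an unadjusted p under 0.05. The muscle pair above is among the 10, but its tumors form 2 clusters, so its test is not read as a result, and the other 9 pairs are described. The eosinophil list correlated with M2-like macrophage genes (r = 0.974, Spearman's rho = 0.976, exact permutation p = 4.96e-05, adjusted p = 0.031), with dendritic cell genes (r = 0.976) and with monocyte genes (r = 0.943). M2-like macrophage genes also correlated with dendritic cell genes (r = 0.921). T cell genes correlated with CD8 and cytotoxic genes (r = 0.974) and with Treg genes (r = 0.938), and Treg genes with NK cell genes (r = 0.935). The interferon-gamma response correlated with MHC class I genes (r = 0.948), although no MHC class I gene was called on its own. Cholesterol synthesis ran against inflammatory cytokines (r = -0.960, exact permutation adjusted p = 0.040), and no longer passed with a prior count of 0.5 (r = -0.860) or with the members that pass the first filter (r = -0.897). Leaving out the 2 tumors farthest from the median of the first list kept the sign of all 9, with sizes from 0.886 to 0.983.

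These calls were at the edge of what 8 tumors allow. With any 1 tumor left out, or in lane 2 alone, 0 pairs passed the adjustment in the exact permutation test, with smallest adjusted p values of 0.0604 to 0.158 and of 0.257 and with 112 to 218 and 140 pairs at an unadjusted p under 0.05. The 9 correlations themselves stayed between 0.896 and 0.991 in size without each tumor and between 0.936 and 0.983 within lane 2. By Spearman's rho no pair passed the adjustment (smallest adjusted p = 0.101) and 169 had an unadjusted p under 0.05. Scores of different lists share the same 8 libraries and their normalization, so the pairs are not independent of each other.

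**Figure D4:**
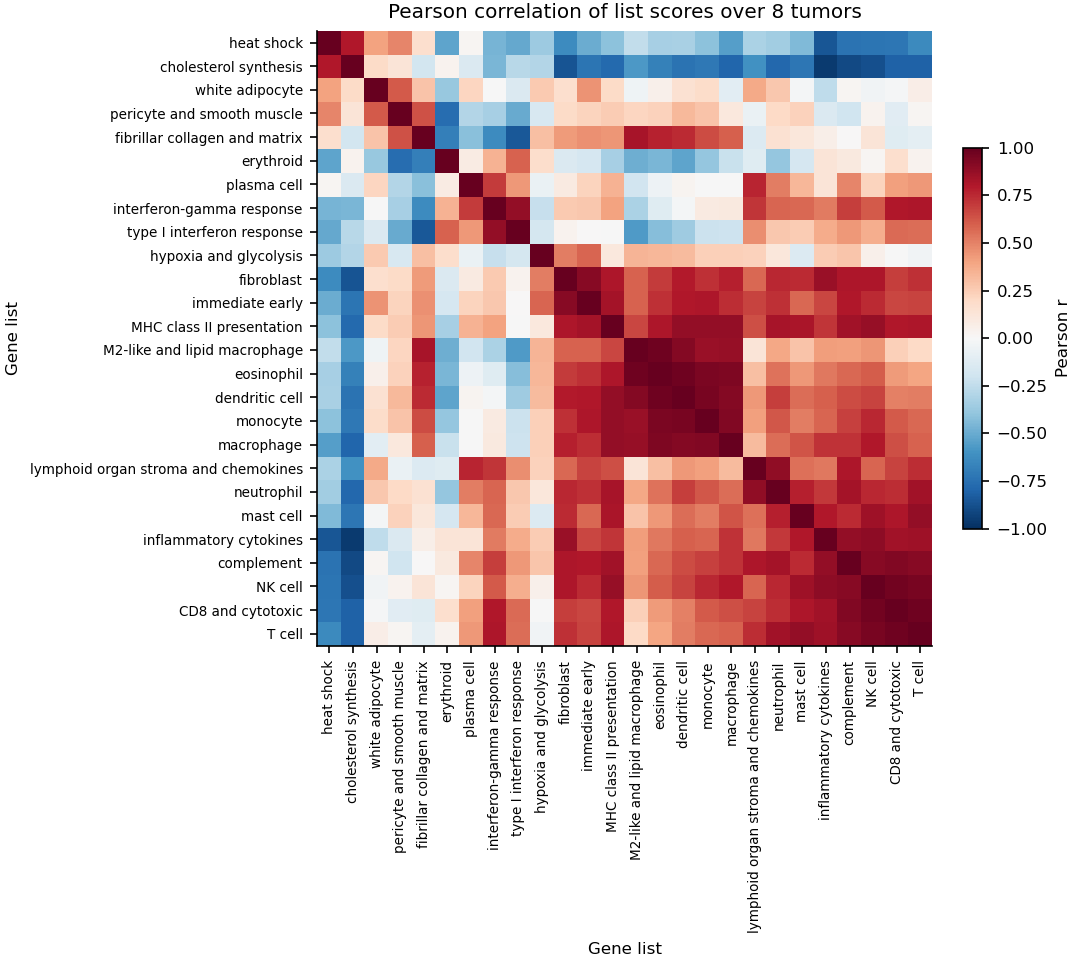
Pearson's r between the scores of 26 lists with at least 2 called genes over the 8 tumors, from -1 (blue) to 1 (red), ordered by average linkage; the muscle lists are left out, and some lists share genes. The myeloid lists (M2-like, eosinophil, dendritic, monocyte, macrophage) and the lists from mast cell to T cell form red blocks, whereas cholesterol synthesis and heat shock are blue against most immune lists, and the type I interferon response is blue against the matrix list.

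The 565 called genes were also grouped by the correlation of their log2 CPM, with average linkage at r = 0.7, and 404 of them fell into 6 groups of at least 15 genes. The groups were formed from the values that called the genes and are a description. Across all pairs of the genes tested, called or not, the median correlation was -0.002, with 5.58% above 0.7. Group 1, of 150 genes, was led by Sod3, an extracellular superoxide dismutase, F10, coagulation factor X, Clec10a, Ccl11, Tmem176b, Cish, Ccl8 and Batf3. It held all 6 called eosinophil, all 5 M2-like, all 5 dendritic cell and all 6 MHC class II genes, and its mean ran from -0.71 in tumor 3 to 0.84 in tumor 6 on the log2 scale. Cish, a feedback inhibitor induced by STAT5, measured between 14.9 CPM in tumor 3 and 58.9 CPM in tumor 6.

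Group 2, of 105 genes, was led by Ifi211, Xaf1, Gbp3, Gbp2, Slfn8, Irgm1, Ifi204 and Mndal, all interferon-induced genes, and held all 15 called genes of either interferon list. Its mean was lowest in tumor 6 (-0.74) and highest in tumor 5 (0.49). Group 3, of 85 genes, was led by Prkcq, the T cell kinase PKC-theta, with C1s2, C1s1, Gm15056, Gimap5, Cd40, C1ra and Il10ra, and it held all 3 called CD8, 4 NK and 3 mast cell genes; it was low in tumors 3 and 1 (-0.57 and -0.53) and high in tumors 8 and 5 (0.58 and 0.50). C1s1 and C1s2 are close copies. Of the genes with a RefSeq start window, 34 of 73 in group 2 hold the interferon element core shown above, against 14 of 107 in group 1 and 6 of 62 in group 3.

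Group 4, of 26 genes, held the 9 called muscle genes and was led by Pygm, muscle glycogen phosphorylase, Fhl1, Acta1, Mylpf, Des, Ryr1, Neb and Synm, at -1.52 and -1.73 in tumors 5 and 7. Group 5, of 19 genes, was led by Prg4, the joint lubricant lubricin, with Serping1, C4b, the lipopolysaccharide-binding protein gene Lbp, Cadm3, Il1b, Gfpt2 and Tnfaip2, and was high in tumors 8 and 5 (0.80 and 0.77) and low in tumor 1 (-0.79). Prg4 itself was at 17.2 and 15.6 CPM in tumors 8 and 5 and between 4.08 and 8.95 CPM in the other 6. Group 6, of 19 genes, was led by Tenm4, Col6a1, Thbs4, Col6a2, Tmem119, Serpine2, Pde7a and Fam180a and was highest in tumor 6 (0.94). Between the group means, the interferon group 2 ran against the matrix group 6 (r = -0.78), and groups 3 and 5 ran together (r = 0.80); these values over 8 tumors are a description. Group 1 had r = -0.22 with the interferon group, and no correlation is given for the muscle group, whose tumors form 2 clusters. The first 3 principal components of all 13392 genes tested, called or not, held 32.6%, 21.9% and 12% of the variance.

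**Figure D5:**
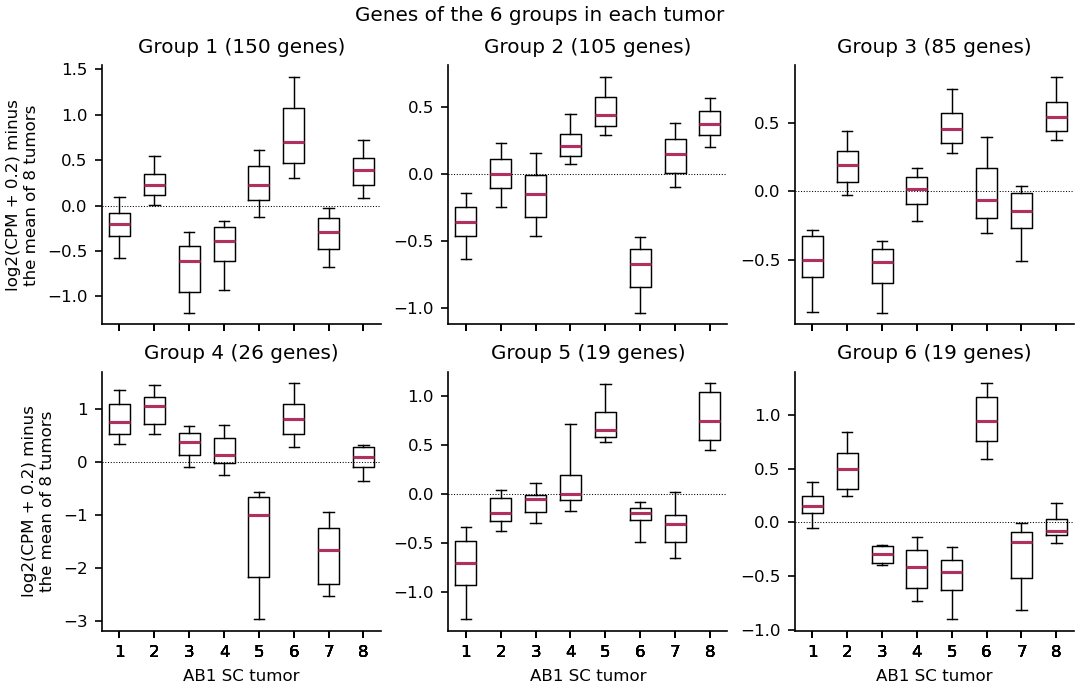
Each panel shows 1 group of co-varying genes, with boxes for the genes' log2(CPM + 0.2) minus the gene's mean over the 8 tumors; the line is the median, the box the quartiles and the whiskers the 10th and 90th percentiles of the genes. Group 1 and group 6 are highest in tumor 6, where group 2 is lowest, and group 4 is low in tumors 5 and 7.

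Beside these programs, some processed pseudogenes, which are copies of spliced RNAs set back into the genome, varied in large steps. Of 1379 tested 76 were called, or 5.51%, against 4.22% of all genes and 4.14% of 10932 protein-coding genes. Of 161 unprocessed pseudogenes 18 were called, or 11.2%. Processed pseudogenes made up 9 of the 10 genes of highest relative variability. Gm3756 (chromosome 9, 31935446 to 31936800) was at 417 CPM in tumor 7 and between 3.73 and 12 CPM in the other 7. Gm13237 and Gm13167 on chromosome 4 were at 125 to 143 CPM and 98.6 to 118 CPM in tumors 1, 4 and 5 and at most 7.35 and 7.29 CPM in the other 5, and Gm13232 was at 118 CPM in tumor 1 only and at most 6.98 CPM elsewhere. A step of more than 3-fold between neighboring tumors, in order of level, was seen in 32 of the 76 pseudogenes and in 18 of the 453 called protein-coding genes. Of the 76, 70 belonged to none of the 6 groups. Reads of near-identical copies can be assigned to either copy, so the levels of these pseudogenes are uncertain; they were singled out after their values were seen.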

How the data were processed

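RNA sequencing was performed on polyadenylated RNA of 8 AB1 SC tumors. The authors deposited raw gene counts from reads aligned with HISAT2 (version 2.0.4), with SummarizeOverlaps named for the counting. Gene names and classes were read from GENCODE M21 and start regions from RefSeq (GRCm38.p6). Counts were scaled by TMM in edgeR (4.0.16, R 4.3.3) and filtered with filterByExpr, which with 1 group required the minimum in all 8 tumors. The residual deviance (7 degrees of freedom) of an intercept-only negative binomial fit at the trended dispersion was compared with the upper tail of the chi-square distribution, with Benjamini-Hochberg adjustment. DESeq2 (1.42.0) was an alternative. The procedure was tested on simulated data. Scores used log2 CPM (prior count 2) of list members with at least 10 counts in total. Exact permutation tests were run over all pairings with numpy (2.4.6), and scipy (1.17.1) gave the ranks and the linkage.

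Members and lists were chosen with earlier results of these data known. Names were drawn from 4 pools, and not every gene of a pool is named. The pools were the 25 most variable protein-coding genes averaging 1 CPM or more, up to 4 most variable and 2 most abundant members of each list, up to 8 leading genes of each group and the 6 least variable genes above 50 CPM. Genes outside this rule (the lineage and granule markers, myosins, adipocyte droplet genes, Il4, Il13, Siglecf, Ccr3, Xist and the pseudogenes among them) were chosen after their values were seen. Alternatives were other scalings, filters, prior counts, lanes, linkages and each tumor left out. The other 24 samples were left out of every fit.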

Additional observations from a re-analysis of the deposited data

Results flagged for a closer look

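Among the 25 most variable protein-coding genes and the 47 list scores, single tumors that stood apart from the other 7 were sought by Dixon's ratio, the gap to the nearest tumor divided by the range on the log2 scale. Chance flags about 1 in 20 groups, so a few flags among so many values carry little weight, and that rate does not hold for genes chosen for their high variability. Tumor 6 stood apart for Ear2, at 91.8 CPM with a ratio of 0.570, and for Ear10, at 24.3 CPM with a ratio of 0.537. Both genes encode ribonucleases of one family of close paralogs, so that reads may be split between them and the 2 results are not independent. No list score was flagged. The flags depend on the scale, since a linear scale widens the gap of a single high tumor, for Chil3 among others.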

How the results depend on the processing

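The number of variable genes was 565 and lay between 467 and 584 under other size factors, filters, each tumor left out, lane 2 alone and lane as a covariate, and at 437 for an adjusted p under 0.01. DESeq2 marked 208 genes as dispersion outliers, and the cause of the lower number was not tested. Without a filter on low counts 584 genes were called, of which 328 were among the 565. With any 1 tumor left out 0 pairs of lists passed in place of 10 (range 0 to 0), and 0 passed with lane 2 alone, where the tests have fewer tumors by construction. The other settings gave 10 to 14 pairs, and the correlation of cholesterol synthesis with inflammatory cytokines was -0.860 with a prior count of 0.5 and -0.897 with filtered members, and no longer passed. Complete linkage gave 13 groups of 280 genes in place of 6 groups of 404. The SD of the Schwann cell and nerve score fell from 0.542 to 0.286 with filtered members and 0.270 with the median over genes. No result changed direction. No paired analysis was possible because only 1 group was studied. With 8 tumors and 3 counts at 0.156 to 0.194 CPM, low genes were limited by depth.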
